A study of Mus musculus with 4 samples.

Results

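The 37 genes described here code for integrin subunits and laminin chains, the cell-surface receptors and the basement membrane proteins through which muscle precursor cells hold on to their surroundings. They are the protein-coding rows of the table whose symbol is Itga, Itgb, Lama, Lamb or Lamc with a subunit number or letter, out of 55573 genes in all. The rule reads the symbol and no measured value. There are 26 integrin genes (18 alpha and 8 beta subunits) and 11 laminin genes (5 alpha, 3 beta and 3 gamma chains). The values are ribosome-protected reads from primary myoblasts, the muscle precursors cultured from the hind limbs of mice, on day 2 of proliferation. The mice were 3 weeks old and of C57BL/6j background, and the medium of both groups held FGF at 10 µg/ml. There were 2 WT libraries and 2 libraries labelled eIF5A-KO.

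eIF5A is a translation factor known for helping ribosomes past difficult stretches such as consecutive prolines. In the eIF5A-KO mice a tamoxifen-activated Cre under the Pax7 promoter (Pax7-CreERT2) deletes a floxed Eif5a, so the deletion is made in muscle stem cells and their progeny and not in other cells of the muscle. The study's text gives the genotype of the WT mice in more than 1 way, and neither the number of animals behind a library nor whether replicates came from separate animals is stated. The p-values therefore measure the spread between these libraries, which may be technical. Eif5a itself was at 34.9 and 65.2 RPKM (reads per kilobase of gene, divided by the authors' library size) in the WT libraries. It was at 60.3 and 59.4 RPKM in the eIF5A-KO libraries. The targeted gene was thus not lower in the libraries labelled eIF5A-KO (log2 fold change 0.32, SE 0.48, limma adjusted p = 0.839), and eIF5A-KO below always means the libraries that carry this label. The paper reports checks of the knockout by RT-qPCR and immunostaining in muscle stem cells, and a western blot of eIF5A. Those are other measures than the reads of these libraries.

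The libraries held between 642429 and 704006 reads. The authors' library sizes, by which RPKM is divided, were 602863 (WT 1), 471136 (WT 2), 906990 (eIF5A-KO 1) and 807705 (eIF5A-KO 2). They lay below the library's own reads in both WT libraries and above them in both eIF5A-KO libraries. Protein-coding genes took 41.5% and 33.9% of the WT reads against 65.4% and 59.2% of the eIF5A-KO reads. MicroRNA genes took 16.8% of WT 2 and between 2.31% and 4.30% of the other libraries. The cell type was checked on marker lists. Of 9 myogenic genes 8 were tested, and the list's summed level was 191 to 325 RPKM in WT against 74.2 to 114 RPKM in eIF5A-KO, without overlap. In this list 5 genes were lower at an unadjusted p-value under 0.05 in limma and 0 were higher, against 4.46% and 2.86% of all tested genes, and 0 passed at an adjusted p-value under 0.05. Of the defining genes Myf5 had no read in eIF5A-KO 2, while Mymk, a fusion gene, had reads only in eIF5A-KO 1. Other cell types were also present. All 10 fibroblast genes were tested, at a sum of 409 to 620 RPKM in WT and 479 to 1009 RPKM in eIF5A-KO. All 8 endothelial genes were tested, at 228 to 334 RPKM and 321 to 406 RPKM. Of 7 smooth muscle and pericyte genes, Des among them, 6 were tested, at 168 to 213 RPKM in WT and 118 to 134 RPKM in eIF5A-KO, again without overlap. Of 10 leukocyte genes 7 were tested, at 49.5 to 83.0 RPKM and 55.1 to 69.2 RPKM, and all 5 Schwann cell genes were tested, at 15.0 to 33.2 RPKM and 21.6 to 30.0 RPKM. Of 5 megakaryocyte genes Pf4 and Ppbp were tested and 3, among them Gp9, had no read, and the list summed to 9.20 to 42.2 RPKM in WT and 20.4 to 22.9 RPKM in eIF5A-KO. Of 6 epithelial genes 5 had no read in any library. At an unadjusted p-value under 0.05 in limma, 1 endothelial gene was higher, 1 leukocyte gene was higher and 1 lower, and 1 smooth muscle and pericyte gene was lower, with 0 in the other lists. The part of cell composition in the results below was not tested. In bulk libraries such as these, fewer cells of a type, less mRNA per cell and fewer ribosomes per mRNA cannot be told apart.

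An integrin is a pair of 1 alpha and 1 beta subunit that spans the plasma membrane, binds matrix proteins outside the cell and couples to the actin cytoskeleton inside it. The pairing sets the ligand. The alpha3, alpha6 and alpha7 subunits bind laminins. The alpha5, alpha8, alphaIIb and alphav subunits bind proteins with the Arg-Gly-Asp (RGD) motif, such as fibronectin and vitronectin. The alpha1, alpha2, alpha10 and alpha11 subunits bind collagens. The beta1 subunit pairs with most of them. Laminins are trimers of an alpha, a beta and a gamma chain, and they form the basement membrane under which muscle stem cells lie. Both families contribute to muscle disease, since loss of the laminin alpha2 chain or of integrin alpha7 causes muscular dystrophy.

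Across the members, levels spanned more than 3 orders of magnitude. Of the 37 genes, 21 had at least 20 reads over the 4 libraries and 16 had fewer, of which Itgad, Itgam and Itgb6 had no read at all. A gene entered the test with a mean of at least 1 RPKM, which 23 members did (16 integrins and 7 laminins). The 16 thinly read members held 89 reads together, at most 14 in a gene (Itga4, 0.152 to 0.473 RPKM), and none went above 2.79 RPKM, the value of Itgb7 in eIF5A-KO 1. The leukocyte alpha subunits Itgad, Itgae, Itgal, Itgam and Itgax were all among them, as were Lama3, Lamb3 and Lamc3 among the laminin chains. With 3 reads as the floor, levels this low are at the limit of what these libraries can show.

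**Figure D1:**
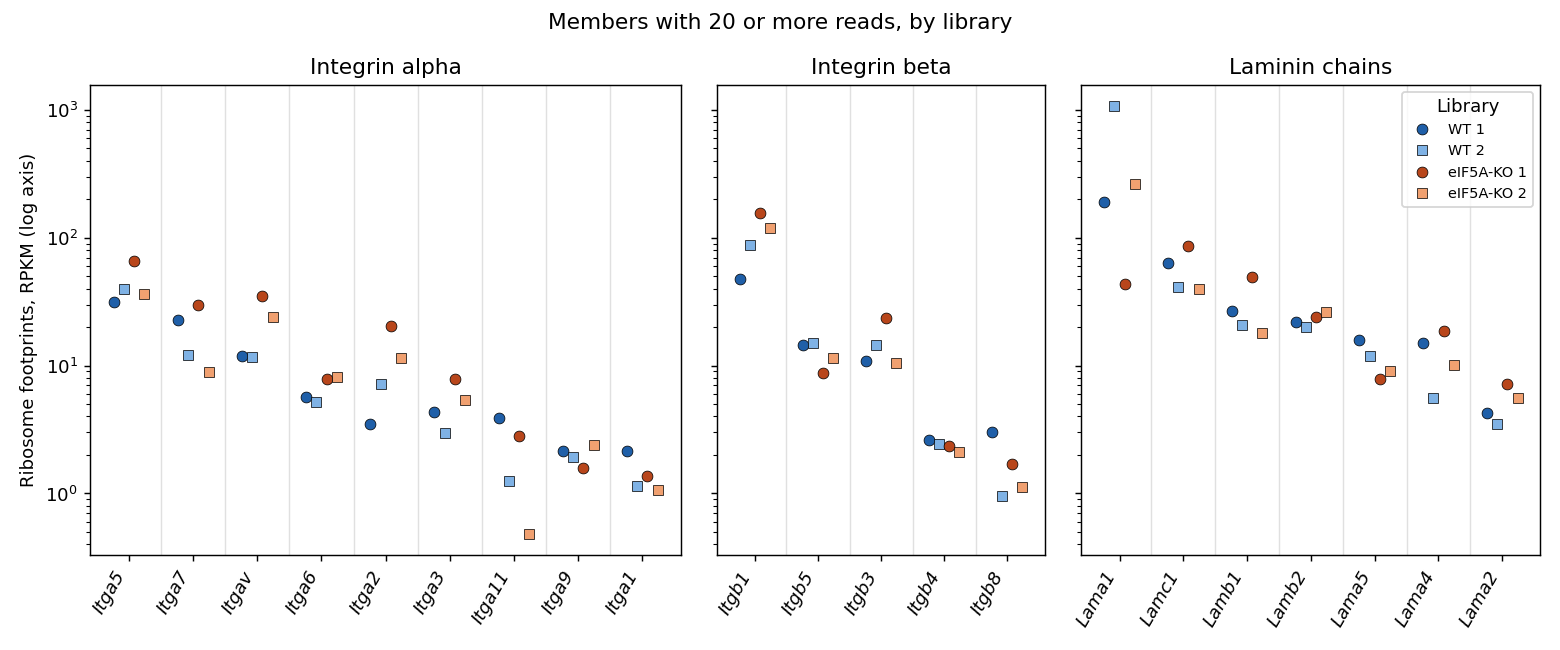
Level of the 21 members with at least 20 reads in each library, in RPKM on a log axis, in the order of their WT mean within each class. Each symbol is 1 library, blue for WT and orange for eIF5A-KO. Itgb1, Itgav and Itga2 lay higher in both eIF5A-KO libraries, and Lama1 spread 24.5-fold over the 4 libraries with its groups overlapping.

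Among the beta subunits, Itgb1 (chr8:128685654-128733200, plus strand, GRCm38), the common partner of most alpha subunits, was the most highly read. Its level was 48.0 and 87.9 RPKM in WT and 158 and 119 RPKM in eIF5A-KO. Both eIF5A-KO libraries stood above both WT libraries, with means of 67.9 ± 28.2 RPKM (SD, n = 2) and 138 ± 27.1 RPKM (SD, n = 2), a ratio of 2.04. The log2 fold change on log2(RPKM + 1) was 1.07 (SE 0.51), and it did not pass (limma adjusted p = 0.676). It was 0.63 without WT 1.

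Itgb5 and Itgb3, the partners of alphav in vitronectin receptors, came next. Itgb5 was at 14.5 and 14.9 RPKM in WT and lower, at 8.69 and 11.5 RPKM, in eIF5A-KO. The groups did not overlap, and the log2 fold change of -0.51 (SE 0.38) did not pass (limma adjusted p = 0.710). It turned to 0.05 when each library was scaled to the same sum of reads. Itgb3 was at 11.0 and 14.4 RPKM in WT and at 23.7 and 10.5 RPKM in eIF5A-KO, where a single library was high and the groups overlapped. Itgb4, the beta partner of alpha6 in hemidesmosomes, was low and close to level, at 2.60 and 2.42 RPKM against 2.36 and 2.12 RPKM. Itgb8, another alphav partner, was at 3.00 and 0.960 RPKM in WT and at 1.69 and 1.12 RPKM in eIF5A-KO, within the WT range. The leukocyte beta subunits Itgb2 and Itgb7 passed the filter with only 13 reads each. For Itgb2 a single read in each WT library stood against 5 and 6 in the eIF5A-KO libraries. For Itgb7 the reads were 3 and 0 against 7 and 3. In WT the order Itgb1, Itgb5, Itgb3, Itgb4 had no overlap between neighbours, whereas Itgb4 and Itgb8 overlapped. Counted per kilobase of coding sequence in place of gene length, Itgb3 came before Itgb5 and Itgb8 before Itgb4.

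Of the alpha subunits, Itga5, the fibronectin receptor alpha, led in both groups by RPKM. It was at 31.3 and 40.0 RPKM in WT and at 65.3 and 36.6 RPKM in eIF5A-KO, with overlap and a log2 fold change of 0.46 (SE 0.48, limma adjusted p = 0.759). That value was 0.049 without eIF5A-KO 1 and 0.86 without eIF5A-KO 2. Itgav (chr2:83724397-83806916, plus strand), the alpha of the vitronectin receptors, was at 11.9 and 11.7 RPKM in WT and at 34.9 and 23.9 RPKM in eIF5A-KO. The WT libraries nearly coincided and both eIF5A-KO libraries lay well above them. The ratio of means was 2.50, and the log2 fold change was 1.23 (SE 0.41, limma unadjusted p = 0.024, adjusted p = 0.665).

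Itga2 (chr13:114833081-114932100, minus strand), a collagen receptor alpha, showed the highest log2 fold change of the 23 tested members. It was at 3.49 and 7.14 RPKM in WT, on 15 and 24 reads, and at 20.2 and 11.5 RPKM in eIF5A-KO, on 131 and 66 reads. All eIF5A-KO values were above all WT values, with a ratio of means of 2.98. The log2 fold change was 1.43 (SE 0.49, limma unadjusted p = 0.0278, adjusted p = 0.668). The groups of the other collagen-binding alphas overlapped. Itga1 was at 2.14 and 1.14 RPKM in WT and at 1.36 and 1.07 RPKM in eIF5A-KO. Itga11 was at 3.88 and 1.24 RPKM in WT and at 2.79 and 0.483 RPKM in eIF5A-KO, on 2 to 13 reads a library. Itga10 had 3 and 0 reads against 0 and 2. For Itga1 and Itga11 the log2 fold changes were -0.23 (SE 0.57) and -0.48 (SE 0.70), with overlapping groups.

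The laminin-binding alphas differed among themselves. Itga7, the chief laminin receptor alpha of skeletal muscle, was second in WT at 22.8 and 12.1 RPKM and was at 29.7 and 8.87 RPKM in eIF5A-KO. The highest and the lowest of the 4 values were both eIF5A-KO libraries, and the log2 fold change was -0.02 (SE 0.66). Itga6 was at 5.70 and 5.17 RPKM in WT and at 7.82 and 8.09 RPKM in eIF5A-KO, a small difference without overlap (log2 fold change 0.48, SE 0.35, limma adjusted p = 0.710). Itga3 was at 4.36 and 2.97 RPKM in WT and at 7.92 and 5.42 RPKM in eIF5A-KO, also without overlap (log2 fold change 0.71, SE 0.40, limma adjusted p = 0.695). Itga9, which binds tenascin and osteopontin, was at 2.16 and 1.93 RPKM against 1.58 and 2.41 RPKM. In WT, by RPKM, Itga5, Itga7, Itgav and Itga6 followed each other without overlap between neighbours, Itga7 and Itgav by a narrow margin. From Itga6 down to Itga2, Itga3, Itga11, Itga9 and Itga1 each neighbouring pair overlapped. In eIF5A-KO, Itgav stood before Itga7, with overlapping values.

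Among the laminins, Lama1 (chr17:67697259-67822647, plus strand), the alpha chain of the embryonic basement membrane, was the most highly read and, of the members with at least 20 reads, the one that varied most between libraries of a group. It was at 192 and 1068 RPKM in WT and at 43.5 and 263 RPKM in eIF5A-KO, on 1122, 4871, 382 and 2055 reads. The order of the libraries was WT 2, eIF5A-KO 2, WT 1 and eIF5A-KO 1, so the groups overlapped, and the values differed 5.56-fold within WT and 6.04-fold within eIF5A-KO. At each replicate number the eIF5A-KO value was below the WT value, and whether the numbers mark a pairing is not stated. Only 16 protein-coding genes had a higher mean level. Its share of protein-coding reads was 2.24% in WT 2 (Wilson 95% interval 2.18 to 2.30) and 0.0830% in eIF5A-KO 1 (0.0751 to 0.0918). The log2 fold change of -2.07 had an SE of 1.14 (limma adjusted p = 0.692) and ran from -3.35 without eIF5A-KO 2 to -0.78 without eIF5A-KO 1. With the replicate number as a block its SE was 0.52 (limma unadjusted p = 0.00868, adjusted p = 0.541). No other gene in the table overlaps Lama1. The table gives a value per gene and no read positions, so how these reads lie along the gene was not examined.

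The remaining laminin chains were steadier. Lamc1, the gamma chain shared by most laminin trimers, was at 63.8 and 41.6 RPKM in WT and at 86.8 and 39.5 RPKM in eIF5A-KO. Lamb1 was at 26.6 and 20.8 RPKM against 49.1 and 18.1 RPKM. For both chains the eIF5A-KO libraries enclosed the WT values. Lamb2, the beta chain of the neuromuscular synapse, was at 21.8 and 19.9 RPKM in WT and at 24.1 and 26.3 RPKM in eIF5A-KO, apart by a log2 fold change of 0.26 (SE 0.38, limma adjusted p = 0.834).

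Of the alpha chains other than Lama1, Lama5 had a negative and Lama2 a positive log2 fold change, and that of Lama4 changed sign with 1 library. Lama5, an alpha chain of mature basement membranes, was at 15.9 and 11.9 RPKM in WT and at 7.84 and 9.13 RPKM in eIF5A-KO. Its groups did not overlap, and the log2 fold change of -0.64 (SE 0.38) did not pass (limma adjusted p = 0.697). That value was -0.08 when each library was scaled to the same sum of reads. Lama2, the alpha chain of the adult muscle fiber, was at 4.26 and 3.51 RPKM in WT and at 7.22 and 5.53 RPKM in eIF5A-KO, without overlap (log2 fold change 0.59, SE 0.37, limma adjusted p = 0.697). Lama4, an alpha chain of vessels and nerve, was at 15.0 and 5.63 RPKM against 18.8 and 10.2 RPKM, with overlap (log2 fold change 0.53, SE 0.57, and -0.10 without WT 2). The ratio of Lama5 to Lama2, which no scaling of a library changes, was 3.72 and 3.40 in WT and 1.09 and 1.65 in eIF5A-KO. This ratio was formed after the values were seen, and 2 libraries against 2 allow no exact permutation p-value under 0.33. Of the other ratios formed, those of Itga7 to Itgb1 and of Lamb1 to Lamc1 overlapped between the groups and the rest did not. Lama5 and Lama2 also differ in the GC content of their coding sequence (60.2% and 48.1%). With the GC trend of the coding genes removed, their log2 fold changes were -0.32 and 0.36.

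**Figure D2:**
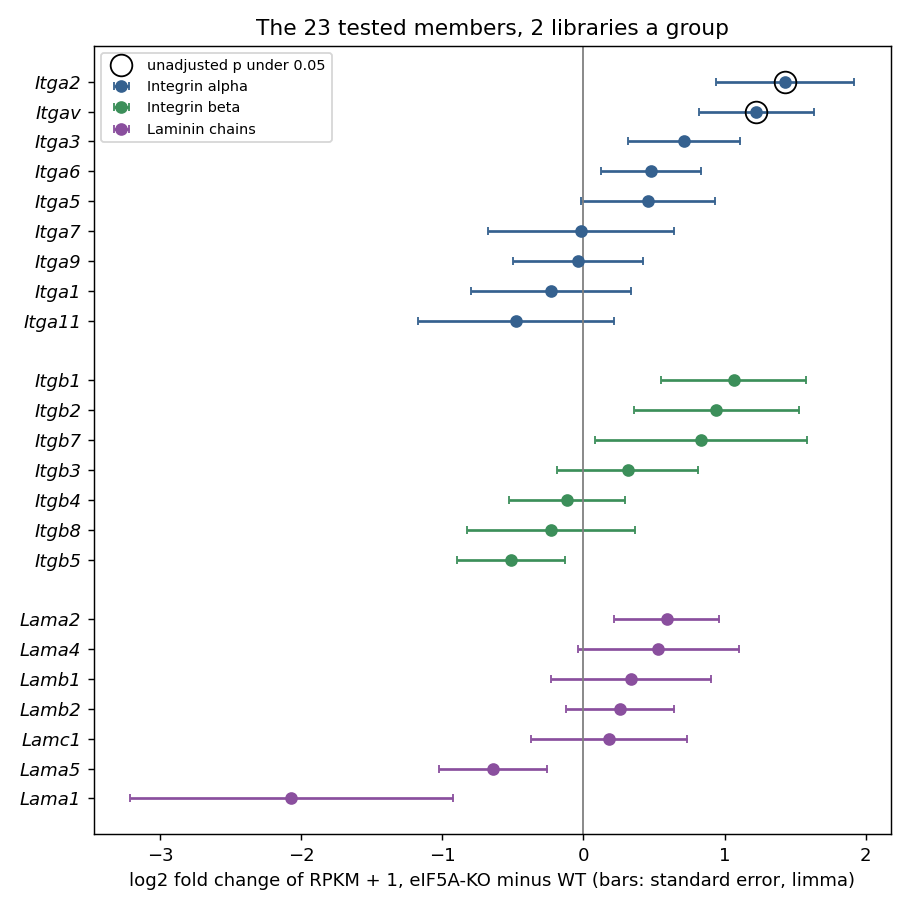
Log2 fold change of RPKM + 1 (eIF5A-KO minus WT) of the 23 tested members by class, with bars for the limma standard error. Circled are Itga2 and Itgav, the 2 members at an unadjusted p-value under 0.05, and Lama1 has the widest bar (SE 1.14).

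Over the whole family, 0 of the 23 tested members passed at an adjusted p-value under 0.05 in limma, the smallest adjusted p being 0.665, against 0.106% of the 11363 genes tested. At an unadjusted p-value under 0.05, 2 members were higher in eIF5A-KO (Itga2 and Itgav, or 8.70%) against 2.86% of all tested genes, and 0 were lower against 4.46%. Leaving out WT 1 left no member higher at this threshold (3.93% of all tested genes were), and leaving out WT 2 gave Itgb1 and Itgb2 (7.12% of all). Leaving out eIF5A-KO 1 gave Itgb2 (1.80% of all), and leaving out eIF5A-KO 2 gave Itgav (2.36% of all). Without overlap between the groups, 8 of the 23 were higher in eIF5A-KO (34.8%) and 3 were lower (13.0%), against 22.4% and 19.3% of the 9877 tested protein-coding genes. The 8 were Itga2, Itga3, Itga6, Itgav, Itgb1, Itgb2, Lama2 and Lamb2, and the 3 were Itgb4, Itgb5 and Lama5. The median log2 fold change was 0.46 over 9 integrin alphas, 0.31 over 7 integrin betas and 0.26 over 7 laminins (0.30 over the 6 without Lama1), beside 0.05 over tested protein-coding genes. Leaving out eIF5A-KO 1 took these medians to 0.17, -0.17 and -0.36, and leaving out eIF5A-KO 2 took them to 0.80, 0.79 and 0.74. Without WT 2 the beta median was 0.09 and the laminin median -0.10, and without WT 1 the laminin median was 0.49. With each library scaled to the same sum of reads, the median of all tested genes moved to 0.47, and the class medians stood at 1.01, 0.89 and 0.85 on that scale. The fold changes of the main fit thus depend on the authors' library sizes, with which the median of all tested genes was 0.00026. The median of the beta subunits rested on the thinly read Itgb2 and Itgb7, since it was -0.12 over genes with at least 20 reads.

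The summed level of all alpha subunits was 90.2 and 84.6 RPKM in WT and 174 and 100.1 RPKM in eIF5A-KO. That of all beta subunits was 81.3 and 121 RPKM in WT and 199 and 148 RPKM in eIF5A-KO. Neither sum overlapped between the groups (exact permutation p = 0.33 for each, the smallest this design can give). For laminins the sum of the alpha chains other than Lama1 was 35.3 and 21.1 RPKM in WT and 34.1 and 24.8 RPKM in eIF5A-KO. The beta chains summed to 48.9 and 41.3 RPKM against 73.4 and 44.4 RPKM, and the gamma chains to 64.5 and 42.1 RPKM against 87.3 and 40.1 RPKM. All 3 laminin sums overlapped between the groups. In the same eIF5A-KO libraries 6 of the 8 tested myogenic markers were lower without overlap and 0 higher, 5 of 8 endothelial markers were higher and 0 lower, and 3 of 10 fibroblast markers were higher and 1 lower. Of the smooth muscle and pericyte markers 4 of 6 were lower and 0 higher, and of the leukocyte markers 2 of 7 were lower and 2 higher. The shares over tested protein-coding genes were 19.3% lower and 22.4% higher. The part of these cell types in the integrin sums was not tested.

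Shares within a class are free of library scaling. Itgb1 held 52.9% (Wilson 95% interval 46.4 to 59.4) and 68.1% (62.1 to 73.6) of the integrin beta reads in WT, and 74.6% (71.4 to 77.5) and 77.5% (73.7 to 80.9) in eIF5A-KO. The groups did not overlap, although the intervals of WT 2 and eIF5A-KO 1 did. Itgb5 held 13.9% and 10.1% in WT and 3.58% and 6.51% in eIF5A-KO. Itgav held 19.3% (15.7 to 23.5) and 21.4% (17.0 to 26.6) of the integrin alpha reads in WT and 29.6% (27.0 to 32.3) and 34.3% (30.6 to 38.1) in eIF5A-KO, so that its 4 intervals separated by group. Itga2 held 3.76% and 8.70% in WT and 11.4% and 10.9% in eIF5A-KO. Itga7 took 27.8% and 16.7% of the alpha reads in WT and 19.0% and 9.60% in eIF5A-KO, with overlap. Itga5 held between 23.3% and 33.7% in the 4 libraries. By ligand, the laminin-binding alphas as a group held 39.3% and 27.5% of the alpha reads in WT and 28.1% and 23.5% in eIF5A-KO, and the RGD-binding alphas 43.9% and 55.8% against 55.6% and 58.6%, both with overlap. The collagen-binding alphas as a group held 13.5% and 13.4% in WT and 14.5% and 14.2% in eIF5A-KO, although the shares of Itga2 and Itga1 within it differed in opposite directions. Among laminin reads other than Lama1, Lamc1 held between 33.1% and 40.0% in all libraries, while Lama5 held 13.2% and 14.4% in WT and 4.98% and 10.5% in eIF5A-KO. For each of these shares whose groups did not overlap the exact permutation p-value was 0.33.

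**Figure D3:**
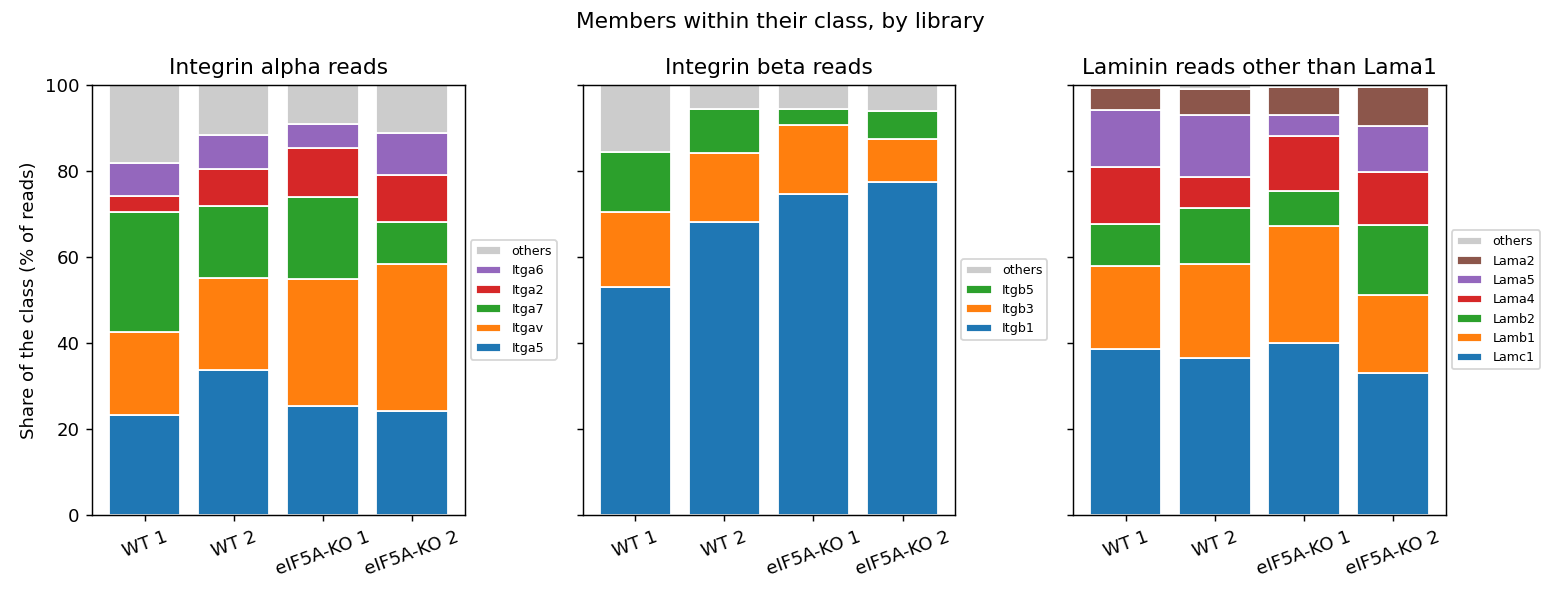
Share of reads (%) of the leading members within the integrin alphas, the integrin betas and the laminin chains other than Lama1, with 1 bar a library. Itgb1 held 52.9% and 68.1% of beta reads in WT and 74.6% and 77.5% in eIF5A-KO, and Itgav held 19.3% and 21.4% against 29.6% and 34.3% of alpha reads.

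The coding sequences of the members vary in base composition, which in these libraries moves with the fold change of protein-coding genes in general. Over 9869 tested protein-coding genes with a coding sequence, the Spearman correlation of GC content with log2 fold change was -0.36, and over the 23 members it was -0.31. Genes are not independent replicates, and all points share the same 4 libraries. Itgb1 had the lowest coding GC of the tested members at 42.6%, with Itga2 at 46.7% and Itgav at 49.3%. Lama5 had the highest at 60.2%, and Itgb5 was at 55.8%. The 8 tested members under 50% GC had a median log2 fold change of 0.56 and the 15 others one of 0.18, beside 0.29 and -0.08 for protein-coding genes split the same way. With the GC trend of the coding genes removed, the log2 fold change was 1.17 for Itga2, 1.03 for Itgav, 0.70 for Itgb1, -0.32 for Lama5 and -0.44 for Itgb5.

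**Figure D4:**
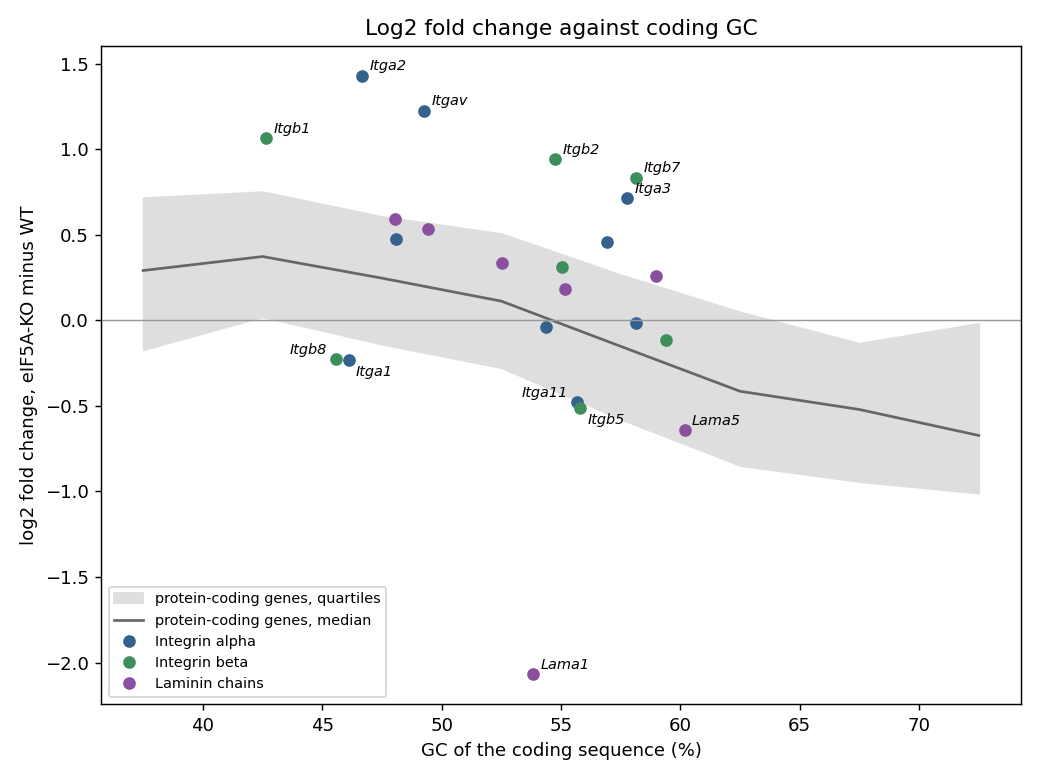
Log2 fold change (eIF5A-KO minus WT) of each tested member against the GC content of its coding sequence (%), over the median (line) and quartiles (gray) of tested protein-coding genes in bins of GC. Itgb1, Itga2 and Itgav lie above the upper quartile of genes of their GC content and Lama1 lies far below the lower quartile.

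Since eIF5A is known for its role at consecutive prolines, the longest annotated coding sequence of each member (GENCODE M21, GRCm38) was searched for 3 or more proline codons (CCN) in a row. Of the 23 tested members 6 had such a run (26.1%), against 25.8% of the tested protein-coding genes. Runs of 5 of these genes are printed with 15 bases of coding sequence on either side, read 5′ to 3′ on the coding strand, with the proline codons in capitals. Each printed run lies in a single coding exon.
Itga3, chr11:95045659-95045697, minus strand, from codon 1045 of 1068: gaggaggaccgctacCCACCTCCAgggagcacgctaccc
Itgb4, chr11:115999824-115999865, plus strand, from codon 1122 of 1818: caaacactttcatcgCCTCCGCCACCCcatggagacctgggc
Itgb4, chr11:115999911-115999949, plus strand, from codon 1151 of 1818: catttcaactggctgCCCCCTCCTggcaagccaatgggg
Lama2, chr10:27324581-27324619, minus strand, from codon 583 of 3118: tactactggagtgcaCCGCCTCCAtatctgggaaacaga
Lama4, chr10:39072805-39072843, plus strand, from codon 860 of 1816: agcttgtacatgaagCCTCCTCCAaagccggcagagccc
Lama5, chr2:180190181-180190219, minus strand, from codon 1753 of 3718: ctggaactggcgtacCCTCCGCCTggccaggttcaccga
The printed run sits close to the end of the protein in Itga3 and further inside in the others, and Itgb4 alone carries a pair. The median log2 fold change of the 6 genes with a run was 0.49 (from -0.64 for Lama5 to 0.71 for Itga3), and that of the 17 tested members without a run was 0.26. Among tested protein-coding genes the medians were -0.13 with a run and 0.12 without. Neither Itga2, Itgav, Itgb1, Itgb5 nor Lama1 has such a run in this annotation.

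The partners of integrins at the membrane and inside the cell had log2 fold changes on both sides of 0. Of 39 listed adhesion partners 34 were tested, and 0 passed at an adjusted p-value under 0.05 in limma (0.106% of all tested genes did). At an unadjusted one 0 were higher and 0 lower, beside 2.86% and 4.46% of all tested genes. Their log2 fold changes were below 0 in 17 and above 0 in 17, with a median of -0.03. Without overlap between groups, 13 of the 34 were lower and 10 of the 34 higher in eIF5A-KO. Both were larger shares than the 19.3% and 22.4% of the tested protein-coding genes. The lowest was Itgb3bp, a centromere protein named for its binding to the beta3 tail, at 117 and 328 RPKM in WT and 83.3 and 51.9 RPKM in eIF5A-KO (log2 fold change -1.56, SE 0.65, limma adjusted p = 0.673, and -0.82 without WT 2). Git1, a scaffold of paxillin signaling, was at 36.7 and 28.1 RPKM against 10.7 and 19.4 RPKM (log2 fold change -1.10, SE 0.46, and -0.69 without eIF5A-KO 1). Tln2, a talin that links beta tails to actin, was at 4.70 and 2.54 RPKM against 1.08 and 1.55 RPKM (log2 fold change -0.96, SE 0.48, and -0.62 without WT 1).

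At the other end of that list were membrane partners and activators. The tetraspanin Cd9 was at 65.7 and 252 RPKM in WT and at 231 and 373 RPKM in eIF5A-KO, with overlap (log2 fold change 1.18, SE 0.76). This value was 0.22 without WT 1 and 2.14 without WT 2. The small GTPase Rap1a, which activates integrins, was at 4.45 and 8.96 RPKM against 11.4 and 15.7 RPKM (log2 fold change 0.97, SE 0.46, and 0.53 without WT 1). Its effector Apbb1ip, also called RIAM, was at 2.46 and 4.01 RPKM against 9.52 and 4.68 RPKM (log2 fold change 0.89, SE 0.46). Without eIF5A-KO 1 it was 0.45, and without eIF5A-KO 2 it was 1.34. For Rap1a and Apbb1ip the groups did not overlap.

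All 16 listed partners of laminins were tested. At an adjusted p-value under 0.05 there were 0, and at an unadjusted one Sdc2 was higher and 0 were lower in limma, beside 2.86% and 4.46% of all tested genes. The median log2 fold change was 0.01, with 8 genes on each side of 0. Sdc2, the heparan sulfate proteoglycan syndecan-2, was at 3.76 and 2.41 RPKM in WT and at 6.88 and 7.37 RPKM in eIF5A-KO (log2 fold change 1.01, SE 0.38, limma unadjusted p = 0.0379, adjusted p = 0.672). Its unadjusted limma p-value was 0.110 without WT 2, 0.181 without eIF5A-KO 1 and 0.198 without eIF5A-KO 2. The galectins Lgals1 and Lgals3 followed, with log2 fold changes of 0.70 (SE 0.74) and 0.51 (SE 0.41), which were -0.19 and 0.34 without WT 1. Lgals1 was at 208 and 715 RPKM in WT and at 664 and 591 RPKM in eIF5A-KO, and Lgals3 at 27.7 and 35.4 RPKM against 45.7 and 44.6 RPKM. Lowest were Ntn4, a netrin that binds the laminin gamma chain, at 4.88 and 5.11 RPKM against 0.589 and 4.96 RPKM (log2 fold change -0.96, SE 0.67, but -0.0064 without eIF5A-KO 1, where it had 2 reads), and the laminin receptor Bcam, at 11.9 and 5.97 RPKM against 4.83 and 3.10 RPKM (log2 fold change -0.96, SE 0.46, and -0.51 without WT 1). Nid2, the nidogen that ties laminin to collagen IV, was at 17.6 and 10.3 RPKM against 10.0 and 5.50 RPKM (log2 fold change -0.77, SE 0.47, and -0.41 without WT 1 or -0.39 without eIF5A-KO 2).

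Few members share sequence with other genes. At least 28 identical bases of coding sequence in a row were shared on the same strand by Itga6 with a processed pseudogene (326 bases), by Itga1 with Gm49395 (237 bases), by Itga10 with Gm42957 (719 bases), by Itgam with Gm49368 (1895 bases), by Itgad with Itgax (78 bases) and by Lama3 with Lama5 (30 bases). How reads on such stretches were counted is not given in the sources used here, so the levels of Itga1 and Itga6 carry that uncertainty, as does the 0 of Itgam. Itgb4 and Lama2 face transcripts of the other strand over 131 and 158 bases, as the thinly read Itga8, Itgad and Lamc3 do, and without a stated strand rule reads there cannot be told apart.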

How the data were processed

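The members, the partner lists and the tests were chosen with earlier results of these data known. RNA protected by ribosomes from RNase I had been sequenced, under sample titles that say Polysome-Seq, in 2 WT and 2 eIF5A-KO libraries grouped by title. The authors deposited RPKM values for each gene and library with the gene length. According to the methods, reads of low quality and those from rRNA or tRNA had been discarded. TopHat2, mm10, HTSeq and Ensembl gene models are named for mapping and counting in the methods or in the submitters' processing notes. The strand rule is not given in the sources used here. The paper gives a shorter cycloheximide treatment for ribosome profiling than for polysome profiling. Descriptions of these samples differ, so no duration is printed here.

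RPKM times gene length gave whole multiples of 1 step a library for 100% of the values (tolerance 0.001 reads), which gave the reads. No RNA-seq of the same cells was used here, so levels are not translation efficiencies. Log2(RPKM + 1) was tested with limma 3.58.1 (R 4.3.3, lmFit, eBayes with trend) over the 11363 genes whose mean reached 1 RPKM, with Benjamini-Hochberg adjustment. This scale understates changes of low genes. Shares have Wilson 95% intervals and the floor is 3 reads, both for counting error only. Single values were compared by exact two-sided permutation, which cannot go below 0.33 here. Of the table's identifiers 99.7% were in GENCODE M21 (GRCm38), as were all 37 members. Shared stretches were found with blastn 2.17.0.

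Every member with at least 20 reads was to be named, and from each partner list the 3 lowest and 3 highest by log2 fold change that had at least 20 reads. Ratios between members and the sums over subunit kinds were added after the values were seen, as was leaving Lama1 out of the laminins. Of the ratios, only that of Lama5 to Lama2 is given in values. Alternatives were another pseudocount, other filters and scalings, limma-voom on reads, a replicate block, a coding GC correction and leaving out each library. Some items are not reported here.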

Additional observations from a re-analysis of the deposited data

How the results depend on the processing

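No tested member passed at an adjusted p-value under 0.05 in limma under any of 16 alternatives (lowest adjusted p 0.253, Itga2 with limma-voom, which called 39 of 9179 genes). Of 23 tested members, 12 kept the sign of their log2 fold change throughout, among them Itga2 (1.00 to 1.98), Itgav (0.96 to 1.80), Itgb1 (0.63 to 1.67), Lama1 (-3.35 to -0.78) and Lama5 (-0.83 to -0.08). At an unadjusted p-value under 0.05, 6 members were higher with the same sum over all genes, where 14.8% of all tested genes were, and 1 (Lama1) was lower with limma-voom (6.66% of all tested genes were) and with the replicate block (4.48%). Same-numbered libraries deviated together with a correlation of 0.06. With 2 libraries a group this value cannot decide whether they share more than a number, such as a batch. The replicate block changed no other count of members.

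Median log2 fold changes with the same sum over all genes were 1.01 (integrin alphas), 0.89 (betas) and 0.85 (laminins), where the median of all genes was 0.47. The alpha median was 0.17 with every gene above 0, and the beta median was -0.12 over members of at least 20 reads and -0.19 under limma-voom, both without Itgb2 and Itgb7. With the same sum, signs turned for Itga1 (0.11), Itga7 (0.56), Itga9 (0.37), Itgb4 (0.31), Itgb5 (0.055) and Itgb8 (0.12). With the GC trend removed they turned for Itga7 (0.19) and Itgb4 (0.16), and with quantile normalization for Itga9 (0.025). The laminin share of protein-coding reads differed by -0.99 percentage points (eIF5A-KO minus WT), and by 0.026 without Lama1. Apart from the change of scale itself, the cause was not tested.

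Leaving out each library in turn, the lone library being assumed to vary like the other group, gave 0 to 2 members higher at an unadjusted p-value under 0.05, beside 1.80% to 7.12% of all tested genes. The medians ran from 0.17 to 0.80 (alphas), -0.17 to 0.79 (betas) and -0.36 to 0.74 (laminins). Signs turned within Itga1 (-0.51 to 0.045), Itga11 (-1.16 to 0.20), Itga7 (-0.84 to 0.80), Itga9 (-0.24 to 0.17), Itgb3 (-0.24 to 0.87), Itgb8 (-0.74 to 0.29), Lama4 (-0.10 to 1.17), Lamb1 (-0.36 to 1.03), Lamc1 (-0.37 to 0.74), Eif5a (-0.12 to 0.76) and Lgals1 (-0.19 to 1.59). Without a change of sign, values moved by over 1.5 times for Itga5 (0.049 to 0.86), Itgb1 (0.63 to 1.495), Itgb4 (-0.17 to -0.064), Itgb5 (-0.70 to -0.33), Itgb7 (0.09 to 1.57) and Lama1 (-3.35 to -0.78) among the members. Depth limits the low members most, since 14 did not reach the test.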
